A study of Arabidopsis thaliana with 18 samples.

Results

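Transcript levels of sng1 plants and of wild-type plants were compared after 24 h of ultraviolet light, named UV-B in the title of the series. The comparison takes the 3 arrays labelled sng1_UV and the 3 labelled WT_UV, which are 6 of the 18 arrays of the series. All groups are Arabidopsis thaliana with Col-0 as the genetic background. The sng1 mutant (sinapoylglucose accumulator 1) cannot complete the synthesis of sinapoyl malate, and the labels give no allele number for it. The tt4 mutant (transparent testa 4), which is impaired in flavonoid synthesis, is used below for comparison.

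Every array held RNA from the aerial region of 1 plant aged 18 days, so a replicate is a single plant. They were grown on solid MS medium with 1% sucrose for 17 days, at 22 °C and under a long day (16 h light, 8 h dark). On day 18 the UV groups received ultraviolet light, and the control groups (CO) continuous light with 8 h of additional light. Both were harvested 6 h into the bright phase. The other 4 groups (tt4_UV, WT_CO, sng1_CO and tt4_CO) also had 3 plants each. The light was the same in sng1_UV and WT_UV, so the comparison shows how the genotypes differ under UV and not what UV does.

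Sinapate esters are phenylpropanoids that gather in the epidermis of Arabidopsis leaves and absorb UV-B. Sinapate is first joined to glucose by glucosyltransferases of the UGT84A group. SNG1, an acyltransferase of the serine carboxypeptidase-like (SCPL) family, then moves the sinapoyl group from sinapoylglucose to malate. Plants without this enzyme keep sinapoylglucose in place of sinapoyl malate. Flavonoids branch off the same pathway at chalcone synthase, the enzyme that tt4 lacks.

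Under UV, sng1 differed from the wild type at 5 of 22746 probe sets (0.0220%), and all 5 were lower in sng1. A probe set is a group of array probes for a transcript. It was called when limma's moderated test, fitted to all 18 arrays, gave a Benjamini-Hochberg adjusted p under 0.05. Values are log2 normalised signals unless another scale is named, differences are sng1_UV minus WT_UV, and an error after ± is the model's standard error (SE). The SE draws on the spread within all 6 groups, not only within those compared. The called probe sets were 267262_at and 252331_s_at, which have no named gene in the annotation used here, 245218_s_at and 245219_at, which are each listed with 2 genes, and AT3G58050 (251619_at). No probe set was called higher, and the smallest adjusted p among those with a positive difference was 0.440. That direction depends on the fit: 5 of 8 calls were higher without sng1_UV 1, 4 of 7 without sng1_UV 2 and likewise without sng1_UV 3, 2 of 7 with a floor of 64, and 1 of 1 with only the arrays compared. Without WT_UV 1 it was 1 of 12, and without WT_UV 2 it was 1 of 10. At an unadjusted p under 0.05 there were 1010 probe sets (4.44%), with 454 higher and 556 lower. In tissue of mixed cells, fewer cells of a type and less RNA per cell cannot be told apart.

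Most probe sets had a difference close to 0. The median difference was 0 and the median size of a difference was 0.11, against a median SE of 0.17. For 19219 probe sets (84.5%) the 95% interval of the difference, which is not adjusted for the number of tests, lay within a 2-fold change in either direction. Among the 14643 probe sets with a mean signal of at least 6 the share was 91.4%. The groups of 3 did not overlap at 1923 probe sets (8.45%), 882 higher and 1041 lower in sng1_UV.

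**Figure D1:**
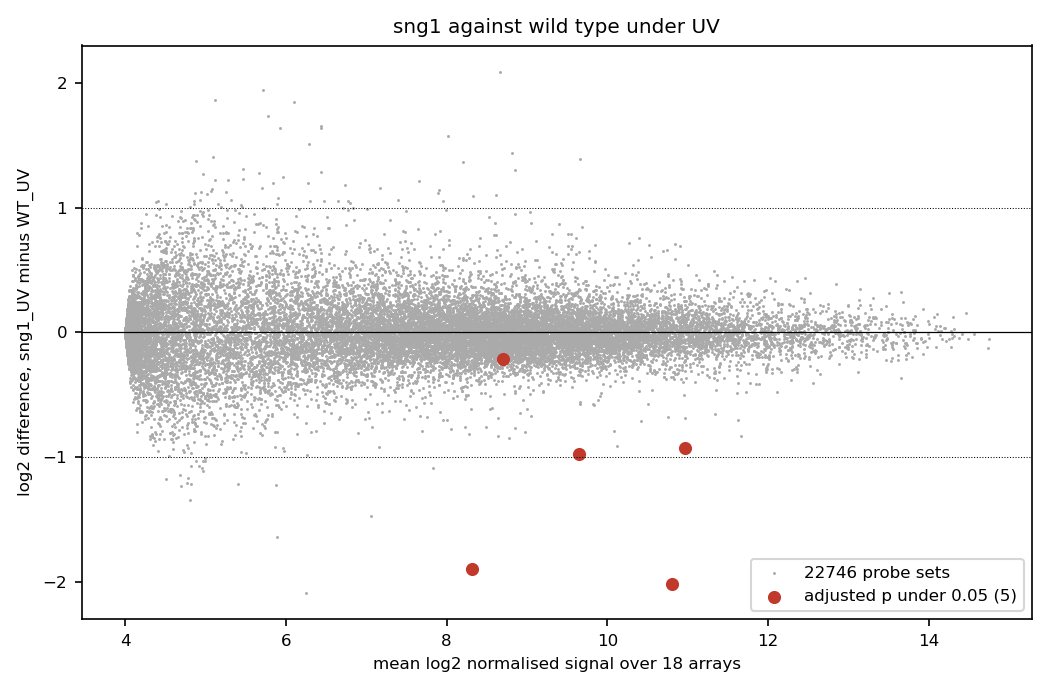
Difference sng1_UV minus WT_UV (log2) against the mean log2 normalised signal over 18 arrays for 22746 probe sets, with the 5 called probe sets as large red points and dotted lines at a 2-fold change. The called points all lie below 0, 2 of them near −2, 2 near −1 and AT3G58050 at −0.22, while the spread of the grey points is widest at low signal.

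Among the called probe sets, the difference was largest at 267262_at. Its signals were 11.51, 11.20 and 10.80 in WT_UV and 9.46, 8.95 and 9.05 in sng1_UV, which on the deposited linear scale are 2903, 2354 and 1793 against 708, 498 and 535. The groups did not overlap, and even the brightest sng1 plant stayed well under the dimmest wild-type plant. The difference was −2.02 ± 0.21 (4.04-fold lower, adjusted p = 0.00355, n = 3 arrays per group, limma).

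The second unnamed probe set, 252331_s_at, gave 8.88, 9.02 and 8.83 in WT_UV and 6.92, 7.24 and 6.87 in sng1_UV. The 3 wild-type plants were close together and so were the 3 sng1 plants, with a wide gap between the groups. Its level was 3.72-fold lower (−1.89 ± 0.19, adjusted p = 0.00355).

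Both remaining probe sets with a large difference are listed with 2 genes each, so neither can be given to 1 gene. The annotation places all 4 of these genes on chromosome 1, within a run of 9 protein-coding genes. For 245218_s_at the signals were 9.73, 9.72 and 9.94 in WT_UV against 8.80, 8.89 and 8.77 in sng1_UV (−0.98 ± 0.13, adjusted p = 0.0286). For 245219_at they were 11.17, 10.97 and 11.44 against 10.21, 10.32 and 10.29 (−0.92 ± 0.13, adjusted p = 0.0461). In both, the groups did not overlap and sng1_UV was the tighter one.

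AT3G58050 is the single called probe set with 1 named gene, and its difference was small. The signals were 8.97, 9.02 and 9.00 in WT_UV and 8.79, 8.77 and 8.78 in sng1_UV, and the groups did not overlap. The difference was −0.22 ± 0.03 (1.16-fold lower, adjusted p = 0.0115), and the SD of the 3 plants was 0.03 in WT_UV and 0.01 in sng1_UV.

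All 5 calls ended when the fit was limited to the 6 arrays compared, which left 4 residual degrees of freedom in place of 12 (adjusted p 0.116 for 252331_s_at, 0.409 for 267262_at, 0.247 for AT3G58050, 0.174 for 245218_s_at and 0.528 for 245219_at). The calls of 267262_at and 252331_s_at remained under the other 14 alternatives tried, while those of 245218_s_at, 245219_at and AT3G58050 remained under 8, 5 and 10 of 15, with values from 0.00867 to 0.174, 0.00867 to 0.528 and 0.00246 to 0.999. The call of 245218_s_at ended without WT_UV 3 or any 1 sng1_UV plant, and that of 245219_at without WT_UV 1, WT_UV 3 or any 1 sng1_UV plant (highest adjusted p 0.0980 and 0.157). By limma, the call of AT3G58050 ended with values as deposited (adjusted p = 0.0600) and with arrays centred on medians (0.180). It ended too with a floor of 4 (0.819) and with dim probe sets left out (0.999), where its difference stayed at −0.22.

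The control light gives a second, separate set of plants for the same genotypes. In sng1_CO against WT_CO, 2 probe sets were called (0.00879% of 22746), both lower, and they were 267262_at and 252331_s_at. The 2 shared probe sets are 40% of the calls under UV and all of those in CO, but the count in CO was 8 with the values as deposited, 9 with array weights, 0 with only the arrays compared and 21 without WT_CO 3. Their differences in CO were −2.10 ± 0.21 and −1.87 ± 0.19 (adjusted p = 0.00281 each), beside −2.02 and −1.89 under UV. For 245218_s_at and 245219_at the values in CO were −0.81 ± 0.13 and −0.82 ± 0.13 and were not called (adjusted p = 0.115 each).

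Across the series, the 6 sng1 arrays lay below the 12 arrays of the wild type and tt4 at these 4 probe sets. The sng1_UV and WT_UV arrays among them gave the differences by which these probe sets were picked. The levels in the CO and tt4 arrays did not enter those differences. The spread within their groups did enter the SE, so they are not wholly separate from that choice. For 267262_at the highest sng1 value in either light was 9.94 and the lowest of the 12 others 10.80. The same limits were 7.36 and 8.70 for 252331_s_at, 9.34 and 9.72 for 245218_s_at, and 10.61 and 10.89 for 245219_at. The mean of the sng1 minus wild-type differences over both lights was a comparison added after the data were seen. It called exactly these 4 probe sets (0.0176%), at −2.06, −1.88, −0.89 and −0.87 (limma, adjusted p = 4.83e-05, 4.83e-05, 0.00233 and 0.00251). This mean includes the UV difference that picked them, so these calls are not separate support.

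AT3G58050 behaved differently. Its difference was 0.00 ± 0.03 in CO, where all 3 genotypes had means of 8.54 to 8.56. Under UV the tt4 plants had a mean of 8.80, next to 8.78 in sng1_UV and 9.00 in WT_UV. It was called in tt4_UV against WT_UV as well (−0.20 ± 0.03, adjusted p = 0.0248), a comparison that uses the same WT_UV arrays. The difference between sng1_UV and tt4_UV was −0.01, with a 95% interval from −0.07 to 0.04.

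**Figure D2:**
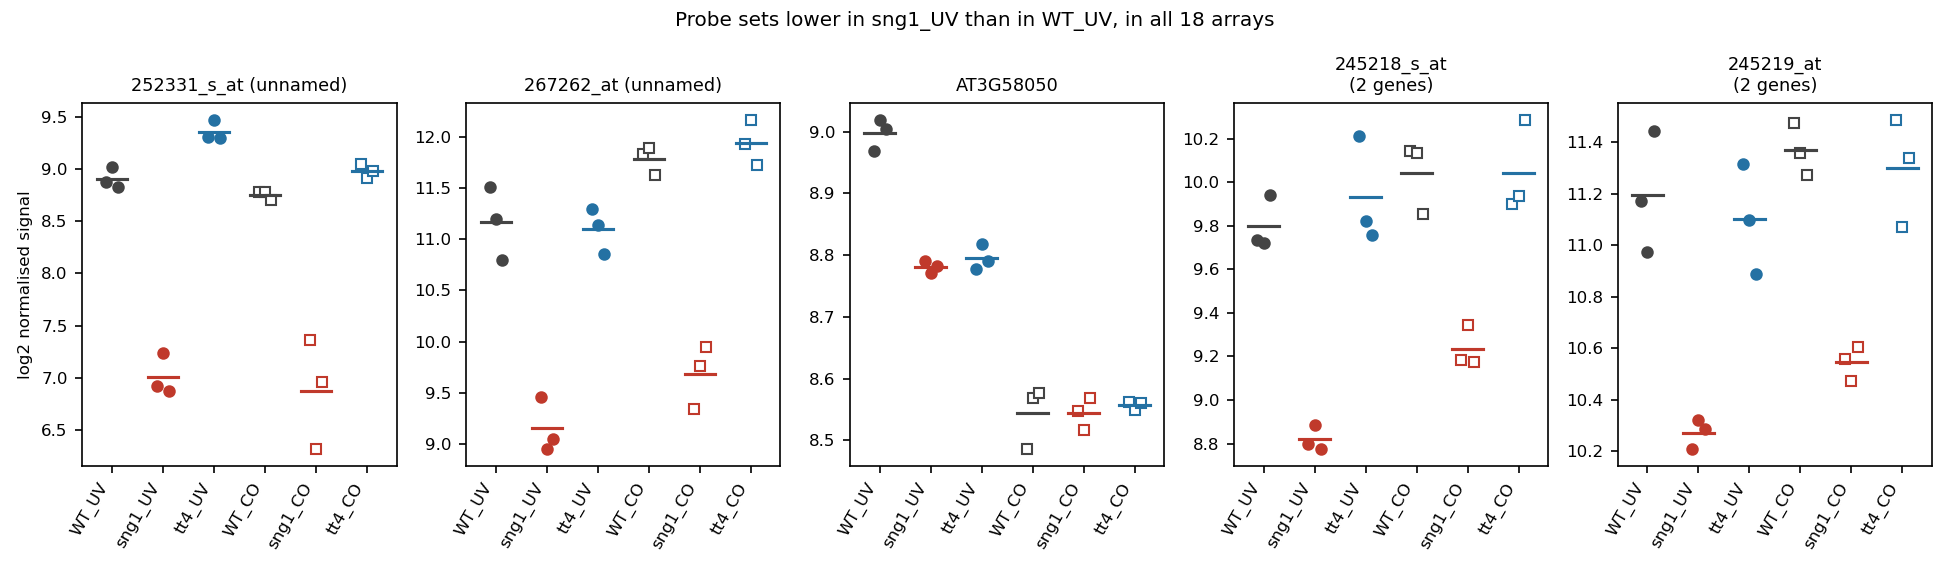
Log2 normalised signal of the 5 called probe sets in each of the 18 arrays, with filled circles for UV, open squares for CO, and lines at the means of 3 plants. At 267262_at, 252331_s_at, 245218_s_at and 245219_at the sng1 plants (red) are lowest in both lights, while at AT3G58050 both mutants sit near 8.8 under UV and all genotypes near 8.5 in CO.

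Whether the genotype difference depends on the light was tested by the interaction, (sng1_UV minus sng1_CO) minus (WT_UV minus WT_CO). By limma no probe set was called (0 of 22746), 688 (3.02%) had an unadjusted p under 0.05, and the smallest adjusted p was 0.575. For 267262_at the interaction was 0.08 with a 95% interval from −0.55 to 0.72, and for 252331_s_at it was −0.02 (−0.60 to 0.56). For 245218_s_at and 245219_at it was −0.17 (−0.57 to 0.23) and −0.10 (−0.50 to 0.30). For AT3G58050 it was −0.22 (−0.30 to −0.14), which was not called (adjusted p = 0.612).

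Over all probe sets the differences in the 2 lights, which share no arrays, were weakly related. Pearson's r across probe sets was 0.10, and 0.09 without the 5 called ones. These are descriptions across probe sets, which are not independent replicates. Among the 20139 probe sets with a difference other than 0 in both lights, 55.8% had the same sign.

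**Figure D3:**
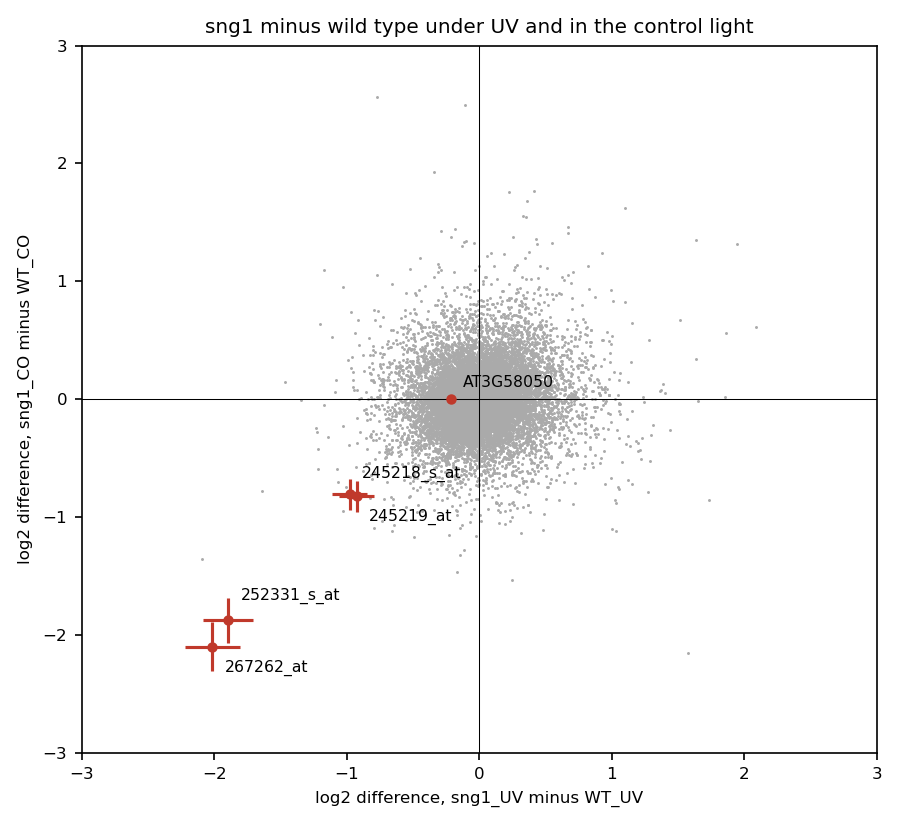
Difference sng1 minus wild type (log2) in CO against the same difference under UV for 22746 probe sets, with the 5 called under UV in red and bars of 1 SE. The points of 267262_at and 252331_s_at lie near −2 on both axes and the probe sets with 2 genes near −1, while AT3G58050 is at 0.00 in CO and the other points form a round cloud (Pearson's r 0.10).

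Most differences of at least 2-fold were not called. A difference of at least 2-fold was seen at 84 probe sets (0.369%), 61 higher and 23 lower in sng1_UV, and 2 of these were called. Of the 84, 53 had an unadjusted p under 0.05 and 51 had groups that did not overlap. The median of their SD within groups was 0.57, against 0.18 over all probe sets. In CO, 40 of the 83 with a difference other than 0 had the same sign, and 6 differed at least 2-fold in the same direction.

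The named genes with the smallest unadjusted p were examined in each direction, although apart from AT3G58050 none was called. They were picked by this same difference, so groups that do not overlap follow largely from the choice. Over all probe sets the groups did not overlap at 8.45%. On the higher side stood 2 plastid genes, rpoB, which codes for a subunit of the plastid-encoded RNA polymerase, and rps14, for a plastid ribosomal protein. The rpoB signals were 7.41, 6.77 and 6.88 in WT_UV and 7.77, 7.91 and 7.75 in sng1_UV (0.79 ± 0.15, adjusted p = 0.440). Those of rps14 were 6.45, 6.48 and 6.18 against 7.16, 7.22 and 7.09 (0.79 ± 0.17, adjusted p = 0.678). The groups did not overlap for either gene, and in CO the differences were −0.04 and 0.08. Without WT_UV 1, its highest wild-type plant, rpoB was called (0.99, adjusted p = 0.0130).

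SPCH, the transcription factor that starts the stomatal lineage, had 6.20, 5.98 and 5.09 in WT_UV and 6.54, 6.93 and 6.97 in sng1_UV. All sng1 plants lay above all wild-type plants, and WT_UV 3 was well below the other two. The difference was 1.06 ± 0.25 and was not called (unadjusted p = 0.00109, adjusted p = 0.948, limma), and in CO it was −0.03. FMA, which acts at the end of the same lineage, had −0.09 ± 0.14, and MUTE, which acts between them, 0.19 ± 0.46.

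ASPGB1, an asparaginase, had 6.09, 6.81 and 5.63 in WT_UV and 7.07, 7.48 and 7.10 in sng1_UV (1.04 ± 0.25, adjusted p = 0.948), and −0.26 in CO. AT4G24380 differed by 0.43 ± 0.10 and AT3G06840 by 0.86 ± 0.18, with 0.19 and −0.15 in CO. The MADS-box gene AGL101 (0.94 ± 0.23) and AT3G32900 (0.84 ± 0.21) were dim, with signals of at most 5.59 in all 6 plants. In WT_UV, 1 plant for AGL101 and 2 for AT3G32900 were at the floor, which affects both differences. AT3G32900 was also higher in tt4_UV than in WT_UV (1.05 ± 0.21, not called), with a mean of 5.25 in tt4_UV and 5.04 in sng1_UV. For AT4G22510 and AT1G20720 all WT_UV plants were at the floor of 4, the lowest value allowed here, so their differences are at least 0.60 and 0.80. AT4G22510 had a difference of the opposite sign in CO (−0.64 ± 0.14), with an interaction of 1.25 ± 0.19 (adjusted p = 0.575), and all sng1_CO plants were then at the floor.

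On the lower side, the genes with the smallest p after AT3G58050 were mostly close to the floor in sng1_UV. AT3G18700, AT2G43580, a gene of the chitinase family, and AT3G28980 were at the floor in all 3 sng1_UV plants. They had signals of 4.18 to 5.27 in WT_UV, and the differences of −0.34, −0.80 and −0.62 (adjusted p = 0.280, 0.431 and 0.948) are bounds, since the floor hides any lower value. All 3 were also at the floor in all tt4_UV and all WT_CO plants. Signals above the floor were also seen in sng1_CO 1, with 4.18 for AT3G18700 and 4.29 for AT3G28980, and in 1 tt4_CO plant for each gene (4.06, 4.35 and 4.37). These genes were picked by their difference from WT_UV, so their level there is a description. AT5G27170 (−0.73 ± 0.14) and AT3G52460 (−0.95 ± 0.19) were at the floor in 2 of 3 sng1_UV plants. Calls appeared when 1 wild-type plant was left out, for AT3G18700 (−0.43, adjusted p = 0.00533) and AT5G27170 (−0.90, 0.0229) without WT_UV 3, for AT2G43580 (−0.56, 0.0400) without WT_UV 2, and for AT3G28980 (−0.85, 0.0121) without WT_UV 1.

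Among brighter genes on the lower side, AT1G69280 had 6.29, 5.92 and 6.37 in WT_UV and 5.40, 5.68 and 5.42 in sng1_UV (−0.69 ± 0.15, adjusted p = 0.678). Its difference in CO was −0.55 ± 0.15, of the same sign, and tt4_UV minus WT_UV was −0.46 ± 0.15, which uses the same WT_UV arrays. AT1G80950, which codes for the lysophospholipid acyltransferase LPEAT1, had −0.25 ± 0.06 under UV and −0.18 ± 0.06 in CO. AT1G30550 (−0.38 ± 0.08) and AT1G27000 (−0.18 ± 0.04) had −0.11 and −0.02 in CO. The groups did not overlap for any of these 4 genes, and none was called.

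**Figure D4:**
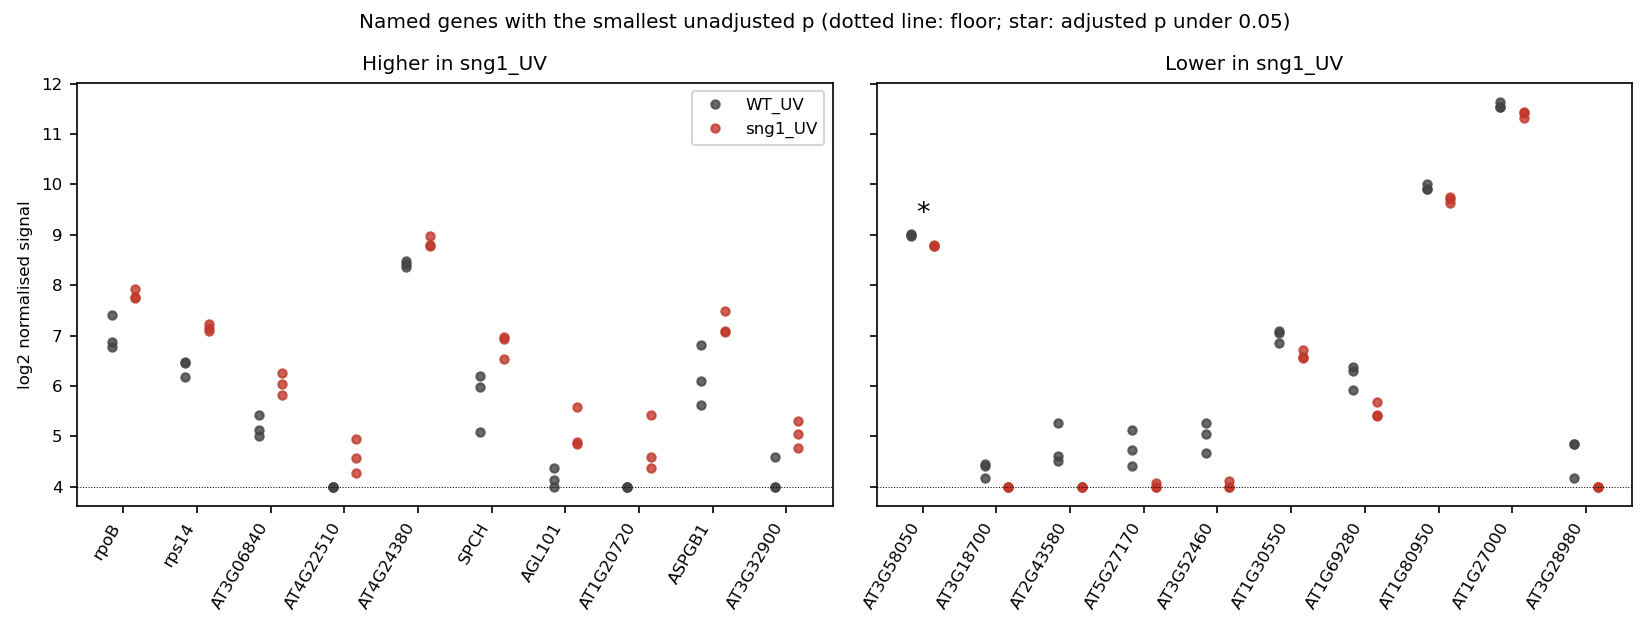
Log2 normalised signal in the 3 WT_UV plants (grey) and the 3 sng1_UV plants (red) for the 10 named genes with the smallest unadjusted p in each direction, with a dotted line at the floor of 4. The groups are apart for each gene, which follows largely from picking the genes by this difference, and many points lie on or near the floor. The star marks AT3G58050, the single called gene among them.

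Gene lists for the pathways and responses that fit the tissue and treatment held 497 loci in 28 lists, of which 88 loci were measured by a named probe set, in 23 lists. None of the 88 was called under UV or in CO. At an unadjusted p under 0.05 there were 7 (7.95%, beside 4.44% of all probe sets), and the groups did not overlap at 10 (11.4%, beside 8.45%). The median difference of the 88 was 0.03, beside 0 over all probe sets, with 49 above and 38 below 0. For 55 of them the 95% interval lay within 2-fold.

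The sinapate ester pathway was measured at 5 of 21 listed loci. SNG1, TT4 and the 8 SCPL relatives of SNG1 have no named probe set here, so their levels are not reported and the genotype was not checked by the mutated gene. REF1, the aldehyde dehydrogenase that makes sinapate and ferulate, had 11.28, 11.71 and 11.37 in WT_UV and 11.55, 11.43 and 11.58 in sng1_UV (0.07, 95% interval −0.23 to 0.37). HCT, a hydroxycinnamoyltransferase on the way to the precursors of sinapate and lignin, had 0.15 (−0.13 to 0.42). For both genes the groups overlapped and the intervals exclude a 2-fold change.

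The UGT84A glucosyltransferases make glucose esters of hydroxycinnamates, the step before SNG1. UGT84A4 had 6.61, 6.38 and 6.65 in WT_UV and 5.85, 5.99 and 6.38 in sng1_UV, with the highest sng1 plant level with the lowest wild-type plant. Its difference of −0.47 ± 0.12 had an unadjusted p of 0.00183 and was not called (adjusted p = 0.948, limma), with −0.14 ± 0.12 in CO. UGT84A1 had 0.12 (95% interval −0.36 to 0.61) and UGT84A3 0.09 (−0.41 to 0.59). These genes are close paralogs, and signal shared between their probe sets was not tested.

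Of 9 listed genes of monolignol and coumarin synthesis 5 were measured, with a median of 0.22. UGT72E1, which glucosylates the aldehydes of monolignols, had 8.34, 8.15 and 7.80 against 8.29, 8.48 and 8.72 (0.40 ± 0.16, unadjusted p = 0.0253, adjusted p = 1.00, limma). CCR2, a cinnamoyl-CoA reductase, was dim, with 5.38, 5.06 and 1 plant at the floor in WT_UV against 5.55, 5.85 and 5.43 (0.80 ± 0.47). F6H1, which opens the route to the coumarin scopoletin, ranged from 8.59 to 10.39 among the wild-type plants alone, and its interval of −1.51 to 1.94 leaves changes of several fold possible.

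The flavonoid branch was measured at 5 of 13 core enzymes and 4 of 19 genes of anthocyanin synthesis or regulation, and no member had an unadjusted p under 0.05. The medians were −0.13 and −0.22. UGT78D2 and UGT78D1, which add glucose and rhamnose to flavonols, had −0.04 (95% interval −0.41 to 0.34) and 0.17 (−0.17 to 0.51). UGT89C1, a flavonol rhamnosyltransferase, had −0.13 (−0.49 to 0.23), and CHIL, a chalcone isomerase-like protein, −0.24 (−1.04 to 0.56). The anthocyanin genes 5MAT (−0.48), UGT79B1 (−0.47), DFR (0.30) and UGT75C1 (0.03) had wider intervals, and none of the 4 lay within 2-fold. DFR, the dihydroflavonol reductase, had 7.25, 7.29 and 7.78 in WT_UV and 7.59, 7.69 and 7.96 in sng1_UV, with overlapping groups.

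Of 28 listed genes that supply aromatic precursors 3 were measured, and none was called. IGPS, an enzyme of tryptophan synthesis, had 0.31 ± 0.23, DHS3, at the entry of the shikimate pathway, 0.15 ± 0.13, and DQS, a dehydroquinate synthase, −0.18 ± 0.16. All 3 intervals lay within 2-fold.

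Genes known to answer UV and its damage were also examined. Named probe sets measured 1 of 14 listed loci of UV-B signalling, 2 of 18 of DNA repair and 2 of 18 of oxidative stress. HYH, a bZIP factor of UV-B and light signalling, had 6.62, 7.20 and 7.32 in WT_UV and 7.33, 7.39 and 6.99 in sng1_UV (0.19, 95% interval −0.60 to 0.98). LIG4, the ligase of DNA end joining, had −0.05 (−0.29 to 0.20), and POLH, a polymerase that copies past UV damage, −0.05 (−1.12 to 1.01). Of the oxidative stress genes, STZ, a zinc finger factor of stress responses, had 9.16, 9.44 and 8.76 against 10.12, 10.19 and 9.95. The groups of STZ did not overlap, but its difference of 0.97 ± 0.41 was not called (unadjusted p = 0.0336, adjusted p = 1.00, limma), with 0.57 ± 0.41 in CO. The SD of STZ was 0.34 in WT_UV and 0.12 in sng1_UV, but 0.51 to 0.77 in the CO groups, which also enter its SE. UPOX, a mitochondrial protein known to rise in oxidative stress, had 0.11 ± 0.33.

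Among detoxification genes, 6 of 8 measured members had a positive difference, and the median was 0.38. GSTU26, a tau glutathione transferase, had 6.05, 5.70 and 6.10 in WT_UV and 6.42, 6.66 and 6.55 in sng1_UV (0.59 ± 0.15, unadjusted p = 0.00182, adjusted p = 0.948, limma). UGT73B4, a glucosyltransferase of stress responses, had 7.61, 8.67 and 7.73 against 9.17, 9.04 and 8.49, with groups that overlapped through WT_UV 2 (0.90 ± 0.29, adjusted p = 1.00). Its neighbour UGT73B5 had 0.30 ± 0.22 and GSTU20 −0.27 ± 0.22. In CO the median of this list was 0.08, and GSTU26 had −0.12 and UGT73B4 0.11.

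WRKY6, a transcription factor of senescence and defence, had 8.14, 8.93 and 8.62 in WT_UV and 8.97, 9.43 and 9.09 in sng1_UV. The groups were only just apart (0.60 ± 0.23, unadjusted p = 0.0251, adjusted p = 1.00, limma), and the difference in CO was −0.03. Defence genes of the salicylic acid pathway had 0.42 ± 0.49 (WRKY53) and 0.03 ± 0.28 (SARD4). The 7 measured genes of aliphatic glucosinolates had a median of 0.02, and the 4 of endoplasmic reticulum stress a median of 0.05, with all 4 intervals within 2-fold.

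The 8 measured nuclear photosynthesis genes, which mark leaf tissue, were bright in both groups. All 8 differences were below 0 but small, from −0.21 (PSAN, a photosystem I subunit) to −0.01 (RCA, the activase of Rubisco), and all 8 intervals lay within 2-fold. None had an unadjusted p under 0.05. Root markers were near the floor, with EXPA18 at the floor in 5 of 6 plants and EXPA7 never above 5.60. No flower or seed marker was measured by name, so other organs were checked in part.

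Of 25 listed genes of cold, drought and abscisic acid responses 5 were measured, and none was called. COR15B, a cold-regulated chloroplast protein, had 9.80, 9.62 and 9.53 in WT_UV and 9.48, 9.34 and 9.26 in sng1_UV. Its groups did not overlap (−0.29 ± 0.59, adjusted p = 1.00 by limma), and COR47, a dehydrin, had −0.15 ± 0.57. The SD of COR15B was 0.14 in WT_UV and 0.11 in sng1_UV, but 1.64 in tt4_CO, which also enters its SE. LEA4-5, a late embryogenesis abundant protein, had 4.17, 4.18 and 6.50 against 4.42, 7.20 and 4.69 (0.49 ± 1.66). LTI30 and COR15A, proteins of cold and dehydration, were highest in sng1_UV 2 at 10.79 each and had 0.88 ± 1.08 and 0.40 ± 1.07. None of the 5 had an interval within 2-fold. SAG29, a sugar transporter from the list of senescence genes, ran from 5.30 to 8.29 in WT_UV and from the floor to 8.33 in sng1_UV (−0.43 ± 1.99). The remaining lists had few measured members, and their medians were 0.27 for jasmonate (3 genes), 0.02 for auxin (6), −0.16 for cell wall loosening (3) and 0.50 for heat shock (3), with no member at an unadjusted p under 0.05. GI, a clock gene, had 0.20 ± 0.29, and AUR1, an Aurora kinase of the cell cycle, 0.27 ± 0.22.

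**Figure D5:**
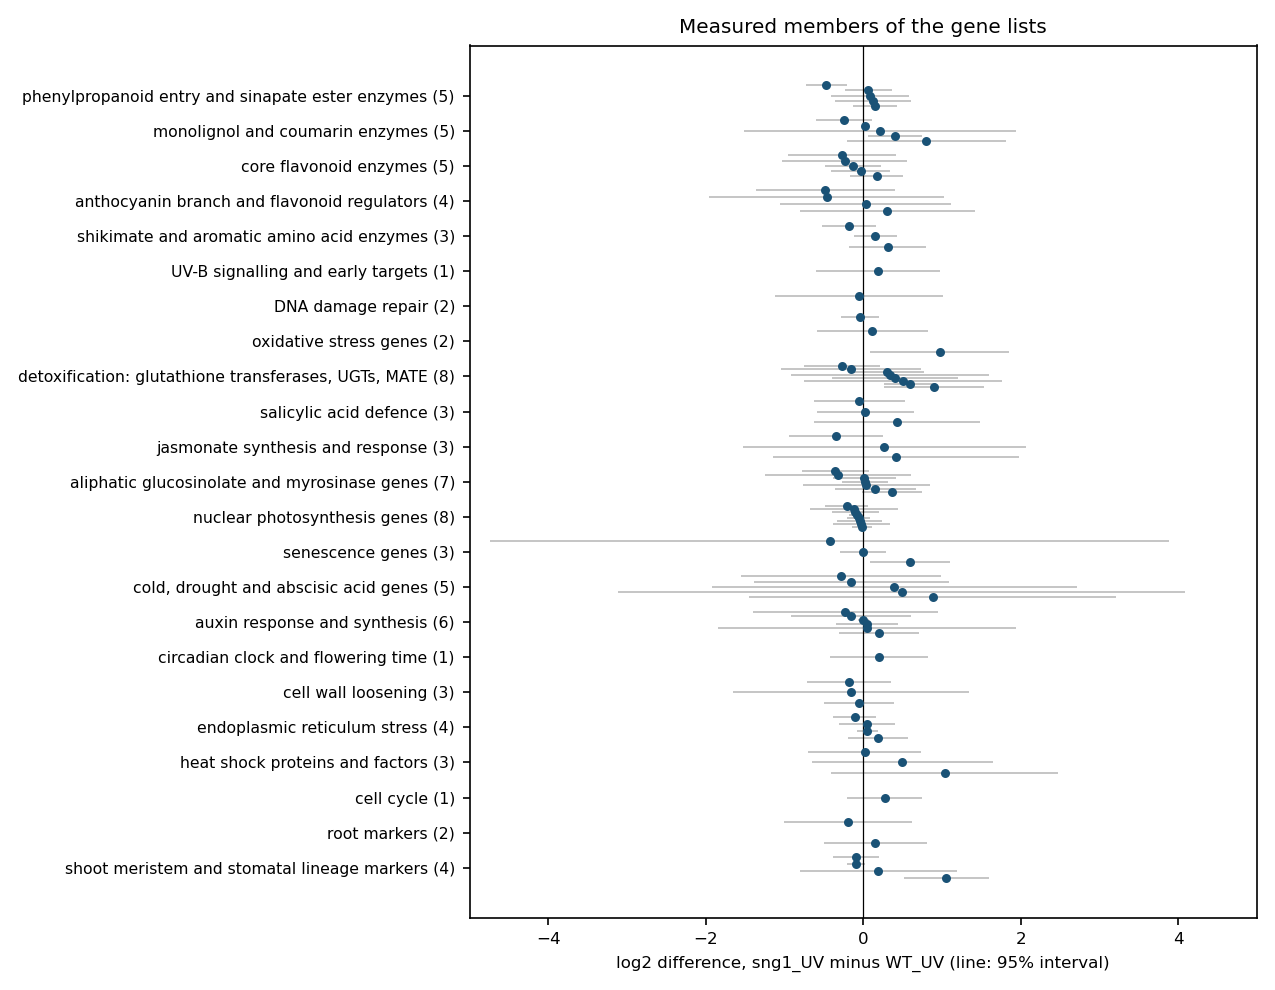
Difference sng1_UV minus WT_UV (log2) with its 95% interval for each measured member of the gene lists, with the number of members in brackets. Most points lie within 0.5 of 0, the nuclear photosynthesis genes are tightly gathered just below 0, and the longest lines belong to SAG29 and the cold, drought and abscisic acid genes.

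Genes were also grouped by where they lie. Of the 69 named plastid probe sets, 8 (11.6%) had an unadjusted p under 0.05, while the 5 nuclear chromosomes had 3.77% to 4.70% of theirs. In other comparisons the same count was 9 for sng1_CO against WT_CO, 11 for tt4_UV against WT_UV and 11 for sng1_UV against tt4_UV, of which the last 2 share arrays with sng1_UV against WT_UV. The 8 for sng1_UV against WT_UV included rpoB and rps14. The others were ndhF (1.00 ± 0.36), petD (0.81 ± 0.26), ndhG (0.43 ± 0.18) and rpoC1 (0.26 ± 0.10) on the higher side, and psbA (−0.70 ± 0.23) and rpoA (−0.83 ± 0.35) on the lower side. The median over the 69 was 0.00, and none was called. The gene psbA, for the D1 protein of photosystem II, had 12.22, 12.03 and 12.60 in WT_UV and 11.69, 11.55 and 11.50 in sng1_UV, with −0.61 ± 0.23 in CO. Its level in tt4 was similar to that in sng1. For psbA, tt4_UV minus WT_UV was −0.67 ± 0.23 and sng1_UV minus tt4_UV −0.03 ± 0.23. The CO means were 11.83 in WT_CO, 11.22 in sng1_CO and 11.24 in tt4_CO.

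Of the 40 protein-coding genes nearest to SNG1 on chromosome 2, 20 on each side, 12 were measured by name and none was called. AT2G22880, 14 genes away, had 5.11, 5.68 and 4.01 in WT_UV and 6.64, 7.33 and 6.67 in sng1_UV, with groups that did not overlap (1.94 ± 0.55, unadjusted p = 0.00375, adjusted p = 1.00, limma). Its difference in CO was 1.31 ± 0.55, with 4, 4 and 6.32 in WT_CO, where 4 is the floor, and 6.17, 5.75 and 6.33 in sng1_CO. The tt4_UV plants had 6.21, 5.73 and 6.37, and sng1_UV minus tt4_UV was 0.77 ± 0.55, not called. AT2G22900 had 0.26 ± 0.12 (unadjusted p = 0.0452, limma), so 2 of the 12 had an unadjusted p under 0.05, beside 4.44% of all probe sets. At the floor in all 6 plants were 4 genes, and the median of the 12 was 0.01.

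The sng1_UV plants were also set against tt4_UV, the other mutant under the same light. Here 6 probe sets were called (0.0264%), 3 lower and 3 higher in sng1. The lower ones were 252331_s_at (−2.35 ± 0.19, adjusted p = 0.000208), 267262_at (−1.94 ± 0.21, 0.00358) and 245218_s_at (−1.11 ± 0.13, 0.00594). The value of 245219_at was −0.83 ± 0.13 without a call (adjusted p = 0.0982). Of the higher ones, 2 have no named gene (250207_at, 5.53 ± 0.26, and 260973_at, 1.72 ± 0.19), and the third was AT1G13195 (0.77 ± 0.11, adjusted p = 0.0354). These 3 differed between sng1_UV and WT_UV by −0.03, −0.02 and 0.19, none of them called.

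For scale, 3 probe sets (0.0132%) were called in tt4_UV against WT_UV, all lower, and 6080 (26.7%) in tt4_UV against tt4_CO by the same fit. Without tt4_UV 1, 2 or 3, tt4_UV against WT_UV had 6 calls each, of which 4, 3 and 4 were higher. At 7 of the 84 probe sets with a difference of at least 2-fold between sng1_UV and WT_UV, UV was called against CO in tt4 (8.33%).

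The arrays themselves were alike. Pearson's r of log2 signals ran from 0.985 to 0.990 between plants of a group and from 0.982 to 0.990 between sng1_UV and WT_UV plants, so sng1 plants were about as like wild-type plants as each other. The log2 ratio of the 3′ to the 5′ probe set of the GAPDH control, a sign of RNA integrity, was 0.35 to 0.96 in WT_UV and 0.14 to 0.46 in sng1_UV, and that of actin 2.56 to 4.01 and 2.80 to 3.01. In both the ranges overlapped, and their part in the differences was not tested.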

How the data were processed

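The deposited values were intensities, 1 linear signal per probe set and array on a 22810-probe-set Affymetrix array, from 0.0130 to 36001. The mean without the highest and lowest 2% was 500.04 to 500.05 on each of the 18 arrays, which was read from the values as the authors' scaling; the sources used here name neither the software nor a background method. No 2 arrays were identical. All probe sets, with the 64 controls among them, were quantile normalised, set to at least 16 (log2 of 4) and log2 transformed. The controls were then removed, and 22746 probe sets remained.

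limma 3.58.1 (R 4.3.3) fitted the 6 groups on 18 arrays (12 residual degrees of freedom) with default eBayes and Benjamini-Hochberg adjustment over 22746 probe sets. The plan had assumed log2 values, and its rule for linear ones was followed. Intervals use the 12.7 total degrees of freedom. With 3 arrays per group an exact permutation test cannot give p under 0.1, and the number of arrays limits the precision. Tables were made with Python 3.11.15 and pandas 2.3.3.

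Supplied annotation tables gave 1 gene for 13513 probe sets and several for 503; 8730 were not listed and stay unnamed. Symbols were updated through RefSeq (TAIR10.1), which gave a locus for 13436. The named genes were the called ones with 1 gene, filled to 10 per direction by smallest unadjusted p, up to 4 members per list by adjusted p, and called genes of the other comparisons; plastid genes, neighbours of SNG1 and list members beyond 4 were added after their values were seen. The lists and the comparison were chosen with earlier results of these data known.

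Alternatives were the values as deposited, arrays centred on medians, floors of 64 and 4, dim probe sets (mean under 6) left out, array weights, only the arrays compared, a replicate block, eBayes with trend and robust, and leaving out each array of a comparison.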

Additional observations from a re-analysis of the deposited data

How the results depend on the processing

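The count of 5 for sng1_UV against WT_UV became 3 with the values as deposited, 2 with arrays centred on their medians, 3 with the replicate block, 1 with only the 6 arrays compared, and 7 to 12 when 1 array was left out (12 without WT_UV 1, 10 without WT_UV 2, 8 without sng1_UV 1). Calls in these 6 last fits held 3 to 5 of the 5, and of their 30 further calls 22 had 1 group wholly at the floor. For sng1_CO against WT_CO the count of 2 became 8 (deposited), 5 (medians), 9 (array weights) and 0 (only the arrays compared, by limma, with 1461 at an unadjusted p under 0.05), and 3 to 21 without 1 array. The interaction, with 0 calls and 688 at an unadjusted p under 0.05, had 1 call with a floor of 4, 2 with only the arrays compared and 0 to 7 without 1 array. For sng1_UV against tt4_UV the count of 6 became 2 with only the arrays compared and 8 to 12 without 1 array. Alternatives for tt4_UV were added after the data were seen: against WT_UV the count of 3 became 5 with a floor of 4, 1 with dim probe sets left out, 1 with only the arrays compared and 6 to 13 without 1 array, and against tt4_CO the 6080 became 3023 with only the arrays compared. Of 1642 values for 111 named genes and probe sets, 1612 kept their side of the threshold, 25 lost a call and 5 gained one. The values counted include the mean over both lights, where AT3G58050 lost its call. No called difference changed sign, but 99 uncalled values did. The causes were not tested. The correlations of deviations of same-numbered sng1_UV and WT_UV plants were 0.392, 0.0187 and 0.0034. Those of plants with different numbers ran from −0.351 to 0.315. Deviations within a group of 3 are not independent, so these values cannot settle whether the replicate numbers pair the plants. The replicate block ended the calls of 245218_s_at and 245219_at. What limits these data is 3 single plants per group, no detection calls for dim probe sets, and 8730 probe sets without a name.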
